A study of Mus musculus with 6 samples.

Results

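Pleiotrophin (Ptn) and midkine (Mdk) are the only members of their family of secreted, heparin-binding growth factors. They were described here together with 7 genes for proteins reported to bind them, which are the receptor phosphatase Ptprz1, the syndecans Sdc1, Sdc2, Sdc3 and Sdc4, the endocytic receptor Lrp1 and nucleolin (Ncl). The 9 genes were chosen by symbol from the 33696 genes counted, and all 9 were found. The cells came from the Achilles tendon of Gli1-CreERT2; Ai9 mice given tamoxifen, in which a red reporter marks cells that expressed Gli1 at the time of induction and their progeny. All groups shared this genotype and treatment. Mice were uninjured, 7 days after tenotomy (7 dpi) or 21 days after it (21 dpi), with 8 mice at each time point and 24 in all, and their cells were sorted into reporter-positive (Gli1+) and reporter-negative (Gli1-) fractions. The study asked what becomes of Gli1+ tendon sheath cells after tenotomy, an injury followed by ectopic cartilage and bone. Each of the 6 conditions was 1 library of single cells, pooled over mice, and nothing in the files says which cell came from which mouse. The age of the mice was not given in the labels.

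Both ligands bind the sulfated sugar chains of proteoglycans, and both are known from developing cartilage, bone and nerve. Pleiotrophin binds the chondroitin sulfate chains of Ptprz1 and thereby lowers the phosphatase activity of this receptor, so that its substrates stay phosphorylated. Syndecans carry heparan sulfate and hold such ligands at the cell surface, Lrp1 takes bound ligands into the cell and has been described as a midkine receptor, and nucleolin is chiefly a nucleolar protein of ribosome production, a fraction of which reaches the cell surface. The libraries measured messenger RNA, so neither the sugar chains nor the place of a protein in the cell was measured.

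The stretches of 250 bases before the start sites of Ptn and Sdc1 (RefSeq, GRCm38.p6) are shown because these were the ligand and the syndecan with the highest ratios at 7 dpi. RefSeq promoters were at hand for 7 of the 9 genes, not for Mdk and Sdc2. Motifs searched on either strand are in capitals where found. The first was the GC box, GGGCGG. The second was the TATA box, spelled TATAAA. The last was the core of the cyclic AMP response element, whose letters are TGACG. Ptn lies on the minus strand at chr6:36810180-36810429 and Sdc1 on the plus strand at chr12:8771146-8771395.
Ptn: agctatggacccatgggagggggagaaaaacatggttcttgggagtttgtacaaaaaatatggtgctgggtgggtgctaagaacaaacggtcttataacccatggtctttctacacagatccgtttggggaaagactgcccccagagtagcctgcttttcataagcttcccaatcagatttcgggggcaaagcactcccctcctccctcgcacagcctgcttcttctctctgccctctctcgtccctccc
Sdc1: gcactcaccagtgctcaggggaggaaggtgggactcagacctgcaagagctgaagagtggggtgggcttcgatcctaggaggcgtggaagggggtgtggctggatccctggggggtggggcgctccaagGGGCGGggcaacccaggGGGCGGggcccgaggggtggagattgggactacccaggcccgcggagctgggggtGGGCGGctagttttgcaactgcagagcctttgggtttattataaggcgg
The Ptn window held none of these 3 motifs and had a GC content of 52.0%, near the median of 52.4% over all 32851 promoters. Sdc1 had 3 GC boxes, with first bases 121, 104 and 49 bases before the start, and a GC content of 66.0%. The other receptor-side genes with an entry had 1 (Lrp1) to 4 (Sdc4) GC boxes and GC contents of 67.2% (Lrp1) to 76.4% (Sdc3), while 32.7% of all promoters held a GC box. None of the 7 windows held a TATA box, found in 12.4% of promoters. The cyclic AMP response core, present in 17.8% of promoters, was found in Sdc3 and Ncl. These are matches of letters only.

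After filtering, 57767 cells remained, 7057 to 10882 per library, with 53564928 to 107887022 UMIs per library and median UMIs per cell of 4297 (uninjured Gli1-) to 9775 (7 dpi Gli1-). Levels are counts per 1000000 UMIs (CPM) of the summed cells, with exact 95% Poisson intervals that cover counting error only. Where 3 levels follow each other they are those of uninjured, 7 dpi and 21 dpi in that order. No p-value is given, since each condition was 1 library, and a gene is called higher or lower where its log2 ratio was at least 0.58 in size. Cells were grouped by markers into classes, and the word "like" after a class name means only that its markers led. Mesenchymal cells numbered 2464 to 8068 per library and held tenocyte-like, tendon stem cell-like and chondrocyte-like cells and a remainder called other mesenchymal. The chondrocyte-like cluster of each sort also had the bone gene Ibsp among its leading genes, and that of Gli1+ had Bglap and Bglap2. Values of this class may therefore include bone-like cells and are not those of cartilage alone. Tendon markers were present in every library: Scx was at 11.1 to 69.9 CPM and Tnmd at 21.5 to 254 CPM over all cells. Gli1 itself, also over all cells, was at 2.17 to 6.55 CPM in the Gli1+ libraries and 2.57 to 7.64 CPM in the Gli1- libraries, so over whole libraries its message did not separate sorts made on the reporter. The libraries differed in their share of mesenchymal cells, and the Gli1 level of those cells alone is not given. Some features set libraries apart. Immune-like cells made up 53.6% of the uninjured Gli1+ cells and at most 0.258% elsewhere. Summed epidermal markers reached 2276 CPM in the mesenchymal cells of 7 dpi Gli1+, against 17.3 to 207 CPM in the other 5 libraries. Cntn5, a neuronal adhesion gene named here after its values were seen, was at 654 CPM in uninjured Gli1- and at 173 and 206 CPM in 7 dpi Gli1+ and Gli1-, against 0.387 to 1.80 CPM in uninjured Gli1+ and both 21 dpi libraries. Lastly, the sexes were uneven although the labels give equal numbers: by Y-linked genes and Xist, 70.3% to 75.8% of mesenchymal cells were male in uninjured Gli1- and both 7 dpi libraries, 92.96% and 94.1% were female at 21 dpi, and the uninjured Gli1+ library held both (24.1% male, 60.4% female). The 2 uninjured libraries thus differed in sex and in Cntn5, so they cannot be taken as 2 fractions of the same pool of mice. Differences between the sorts before injury cannot be told apart from differences between mice or libraries. Ratios over an uninjured library share this limit. The 7 dpi libraries were mostly male and the 21 dpi libraries nearly all female, and Cntn5 differed between them as well. Differences between 7 and 21 dpi therefore cannot be told apart from differences of sex, mice or libraries. Between 27 and 75 barcodes were shared by a pair of libraries.

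In mesenchymal cells both ligands and Sdc1 were higher after injury in both sorts at both times, and Lrp1, Sdc2 and Ptprz1 were lower in both sorts at 7 dpi. Of the 9 genes, 3 were higher and 4 lower at 7 dpi in Gli1+ cells, where 22.9% of all 18385 genes were higher and 34.9% lower. At 21 dpi in Gli1+ cells 4 were higher and 1 lower, against 15% and 38.9% of all genes. In Gli1- cells 3 were higher and 3 lower at 7 dpi (24.9% and 28% of all genes), and 4 higher and 3 lower at 21 dpi (22% and 29.6%). With so few members these counts say little by themselves against such wide background shares, and the values of each gene follow. The median log2 ratio over all genes was -0.20 and -0.36 in Gli1+ at 7 and 21 dpi and -0.08 and -0.12 in Gli1-. Scaling by TMM raised all ratios of a comparison alike, by 0.30, 0.46, 0.10 and 0.18 in the same order. Under TMM the shares of all genes higher and lower became 31.6% and 25.3%, 29.2% and 21.8%, 28.0% and 24.3%, and 27.6% and 23.1%.

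**Figure D1:**
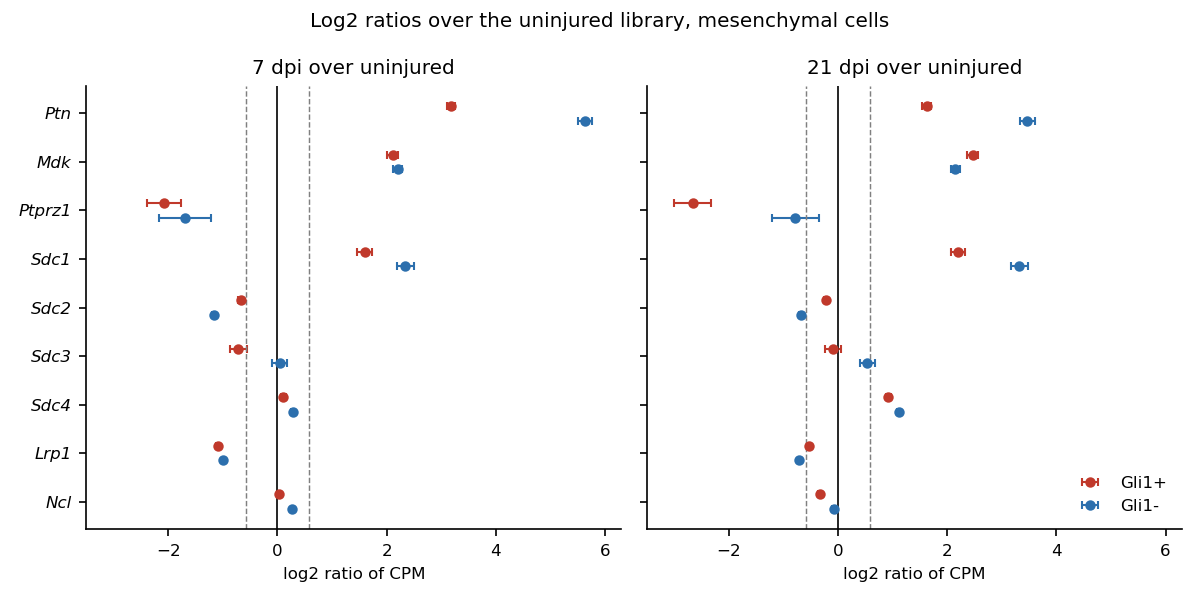
Log2 ratios of CPM in mesenchymal cells for the 9 genes, at 7 and 21 dpi over uninjured, in each sort, with 95% intervals for counting error and dashed lines at the call of 0.58 in either direction. Ptn, Mdk and Sdc1 lie above the upper line in all 4 comparisons, and Lrp1 lies below the lower line in 3 of them, its Gli1+ value at 21 dpi being -0.54.

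Ptn (ENSMUSG00000029838) had the largest ratio of the 9 genes at 7 dpi. In Gli1+ mesenchymal cells it was at 65.2 CPM uninjured, 588 CPM at 7 dpi and 201 CPM at 21 dpi. In Gli1- mesenchymal cells the levels were 13.2, 658 and 147 CPM. The highest level of each sort was thus at 7 dpi, and at 21 dpi both remained above their uninjured level. Over uninjured, the log2 ratio of Gli1+ at 7 dpi came to 3.17 (interval 3.099 to 3.25), that of Gli1- to 5.64 (5.51 to 5.77). At 21 dpi over uninjured it was 1.62 (1.55 to 1.70) and 3.47 (3.34 to 3.60), and from 7 to 21 dpi Ptn was lower, by ratios of -1.55 and -2.17. The wider ratio of Gli1- came with its low uninjured level: the 2 sorts differed before injury by a log2 ratio of 2.30 (2.15 to 2.45), and at 7 dpi by -0.16. Within male cells alone the 7 dpi ratios were 2.99 and 5.92, and within female cells the Gli1+ ratio at 21 dpi was 1.69. The Gli1- library without injury had no mesenchymal cell typed as female, so sex and time cannot be told apart for its 21 dpi ratio. The same holds in both sorts for the lower level at 21 dpi than at 7 dpi.

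The share of mesenchymal cells with a Ptn UMI moved in the same order. With every cell thinned to 2000 UMIs, 8.38%, 41.1% and 17.5% of Gli1+ mesenchymal cells held at least 1 at uninjured, 7 and 21 dpi, and 2.12%, 39.4% and 13.5% of Gli1- cells (unthinned 17.8%, 68.3%, 34.3% and 4.39%, 67.8%, 30.9%, with median depths of 5790 to 11501 UMIs). Between 41 and 254 cells per library fell under 2000 UMIs and were left out. As a background, 0.107% of uninjured Gli1+ immune-like cells (median 7746 UMIs) held a Ptn UMI after thinning. In endothelial-like cells of the Gli1- libraries, which had 2219 to 3656 median UMIs, the thinned shares were 0.712%, 15.03% and 2.87%. At 7 dpi in Gli1+, where no immune-like class was large enough, the shares were 23.7% of endothelial-like, 24.5% of epidermal-like and 14.8% of pericyte and smooth muscle-like cells (medians of 3177, 8899 and 2890 UMIs), against 41.1% of mesenchymal cells. Ptn in epidermal-like cells was at 27.1% of the mesenchymal level there, above the 9.37% to 13.3% of 5 matrix genes (Col1a1, Col1a2, Col3a1, Dcn and Lum), while in pericyte and smooth muscle-like cells its 31.7% lay within their 26.2% to 42.2%. Among thinned mesenchymal cells with a Ptn UMI, 31.1% (Gli1+) and 33.5% (Gli1-) at 7 dpi also held Mdk, against 20.4% and 19.3% of those without.

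**Figure D2:**
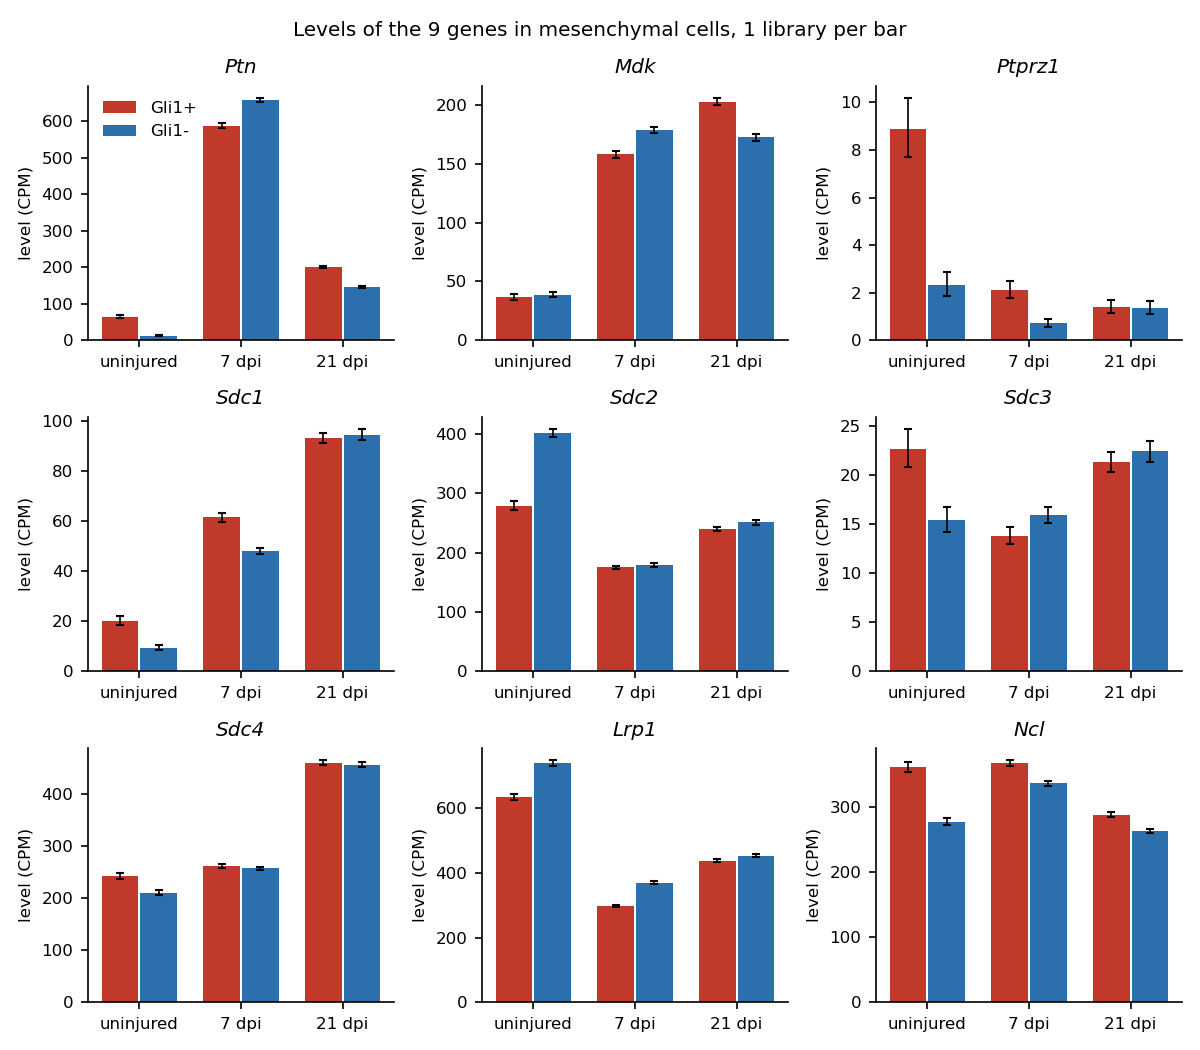
Levels of the 9 genes in mesenchymal cells (CPM, linear axis from 0) in the 6 libraries, with bars for 95% Poisson intervals. Ptn stands at 588 and 658 CPM at 7 dpi against 65.2 and 13.2 CPM uninjured, while Lrp1 goes from 634 and 738 CPM to 297 and 370 CPM.

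The cells with Ptn changed with time. In the uninjured Gli1+ library epidermal-like cells led at 228 CPM (214 to 242), ahead of tenocyte-like cells at 149 CPM, and the 2 classes held 35.1% and 34.2% of that library's Ptn UMIs. Endothelial-like and other mesenchymal cells followed at 112 and 94.98 CPM with overlapping intervals. Stem cell-like cells were at 22.7 CPM, and immune-like and skeletal muscle-like cells at 1.55 and 1.52 CPM. In uninjured Gli1- the order was led by an unnamed cluster of 160 cells at 1599 CPM (1499 to 1704), which held 54.7% of the library's Ptn UMIs. Schwann-like (218 CPM) and lymphatic endothelial-like cells (156 CPM) came next with overlapping intervals, then tenocyte-like cells at 73.6 CPM and stem cell-like cells at 8.05 CPM. In the uninjured Gli1- library, then, most Ptn message was outside the mesenchymal cells.

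At 7 dpi mesenchymal cells held almost all of it. Other mesenchymal cells were at 607 CPM in Gli1+ and held 90.03% of the library's Ptn UMIs. In Gli1- they were at 768 CPM with 64.9%, and stem cell-like cells were at 518 CPM with 29.7%. This remainder class was largely made of clusters that came almost only from 7 dpi: 1 cluster with 3830 of 3852 cells from 7 dpi Gli1+ had 712 CPM. Another, with 2059 cells of 7 dpi Gli1+ and 316 CPM, was nearest to the stem cell markers but was not given that name because epidermal genes, Krt1 and Krt10 among them, were among its leading genes, so the remainder of Gli1+ and that of Gli1- at 7 dpi are unlike. In Gli1- the remainder was mainly a cluster of 3241 cells at 781 CPM, nearest to the tenocyte markers. It was not given that name because its leading genes held Acta2, a pericyte and smooth muscle marker, and no tenocyte marker. Whether Ptn in Gli1- passed from other mesenchymal to tenocyte-like cells by 21 dpi therefore depends on this naming. The stem cell-like class of Gli1- was also made of different clusters, 3710 cells at 7 dpi lying in a cluster that held 79 uninjured cells, while 3629 uninjured cells lay in another. Its Ptn log2 ratio at 7 dpi was 6.01 (5.83 to 6.19). Within its clusters Ptn was higher at 7 dpi as well. It went from 3.35 to 57.9 CPM in the cluster of the 3629 cells and from 17.2 to 548 CPM in that of the 79 cells. In another, of 1361 uninjured cells and 93 at 7 dpi, it went from 19.7 to 85.6 CPM. Cells with 2 or more UMIs of cycling genes were 19.9% and 15.4% of the mesenchymal cells at 7 dpi, and their Ptn level was 468 and 546 CPM, below the 640 and 693 CPM of the rest. By cluster the order was the other way: the cluster at 712 CPM and a Gli1- cluster at 781 CPM were the ones with raised cycling markers, and their Ptn was above the 316 and 548 CPM of the other large mesenchymal cluster of each sort. Before injury the 28 such cells of Gli1+ had 256 CPM, against 60.8 CPM in the rest. Endothelial-like cells of Gli1+ stood at 27.7% of the mesenchymal Ptn level at 7 dpi, where the 5 matrix genes had a median of 18.2%. In Gli1- the same values were 12.7% and 13.4%, that is, no more than the matrix genes.

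At 21 dpi tenocyte-like cells led the mesenchymal classes. They were at 284 CPM in Gli1+ and 189 CPM in Gli1-, with 77.5% and 72.6% of the library's Ptn UMIs. Other mesenchymal cells were at 81.4 and 105 CPM, and chondrocyte-like cells at 47.5 and 43.1 CPM. Chondrocyte-like cells therefore had less Ptn per UMI than tenocyte-like cells of the same library, with intervals that did not overlap. Within tenocyte-like cells the 21 dpi ratio over uninjured came to 0.93 (0.84 to 1.03) for Gli1+, and to 1.36 (1.13 to 1.61) for Gli1-. The tenocyte-like cells of Gli1+ came mainly from 1 cluster in each library (692 cells uninjured, 717 at 7 dpi, 4710 at 21 dpi), a different one each time. The cluster with the 4710 cells held 51 uninjured cells at 648 CPM and stood at 289 CPM at 21 dpi, the opposite direction, while the one with the 692 cells went from 104 to 154 CPM, so the higher level of the Gli1+ class came with a change of cluster. In Gli1- Ptn was higher at 21 dpi within both tenocyte-like clusters. It went from 44.6 to 190 CPM in the cluster with 72 uninjured cells and from 95.7 to 157 CPM in that with 194. The unnamed Gli1- cluster stayed near its level, at 1924 CPM at 7 dpi and 1467 CPM at 21 dpi, but held only 1.02% and 2.01% of the library's Ptn UMIs. It was left unnamed because the macrophage gene Lyz2 led it at 3945 CPM, although Sox10 (418 CPM) and Cdh19 (1503 CPM), both genes of Schwann cells, were high and Cd68, Csf1r, Adgre1, C1qa and C1qb were at 0. All 365 of its cells fell in the Schwann-like class when both sorts were clustered together.

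**Figure D3:**
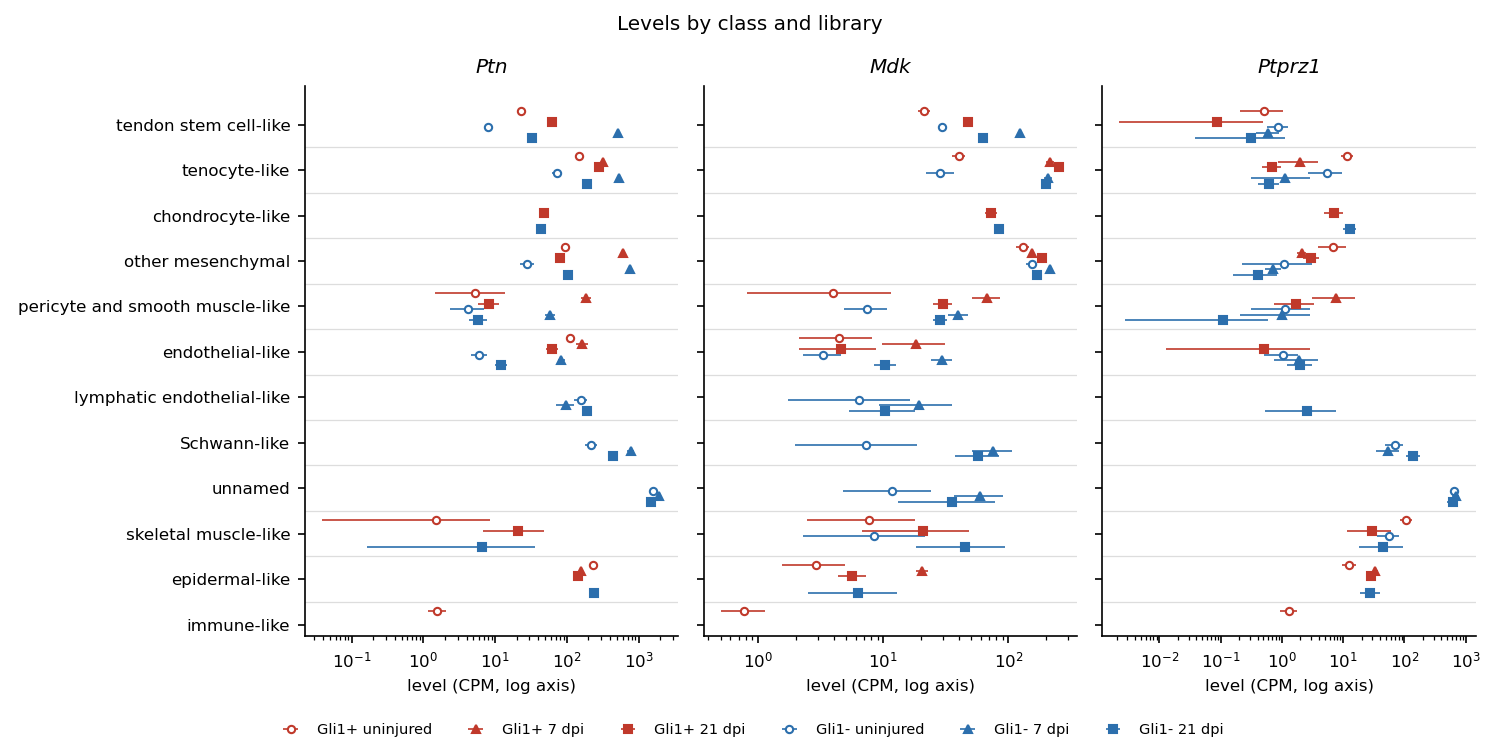
Ptn, Mdk and Ptprz1 levels (CPM, log axis) in each marker-defined class and library, with 95% Poisson intervals. Classes with fewer than 50 cells in a library, and levels of 0, are not drawn. Ptn and Ptprz1 are highest in the unnamed Gli1- cluster (1467 to 1924 CPM and 612 to 685 CPM), and Mdk is highest in mesenchymal classes, up to 255 CPM.

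Mdk (ENSMUSG00000027239) was also higher after injury, at both times in both sorts. Mesenchymal cells of the Gli1+ sort had 36.5, 158 and 202 CPM, and those of the Gli1- sort 38.8, 179 and 173 CPM. The log2 ratios over uninjured came to 2.11 (2.01 to 2.22) at 7 dpi and 2.47 (2.37 to 2.57) at 21 dpi for Gli1+. For Gli1- they came to 2.20 (2.12 to 2.28) and 2.15 (2.07 to 2.23). Unlike Ptn, Mdk was at nearly one level in both sorts before injury, the log2 ratio between them being -0.09 (-0.21 to 0.03). From 7 to 21 dpi the ratios were 0.36 and -0.05, neither past the call, where those of Ptn were -1.55 and -2.17. Within male cells the 7 dpi ratios were 1.85 and 2.28. After thinning, 6.52%, 24.8% and 26.1% of Gli1+ mesenchymal cells held a Mdk UMI, and 7.32%, 24.9% and 23.5% of Gli1- cells, against 0.107% of immune-like cells and 0.796% to 5.72% of endothelial-like cells of the Gli1- libraries (unthinned mesenchymal shares 16.2% to 58.8%).

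Mesenchymal cells held most of the Mdk UMIs in all 6 libraries. Before injury other mesenchymal cells led, at 130 CPM in Gli1+ and 153 CPM in Gli1-, and stem cell-like cells, although at only 21.1 and 29.3 CPM, held 32.0% and 61.7% of the library's Mdk UMIs by their number. At 7 dpi other mesenchymal cells held 88.6% and 67.4%, at 155 and 215 CPM. In Gli1- these were mainly the cluster nearest to the tenocyte markers. Tenocyte-like cells at 7 dpi were at 216 CPM in Gli1+, above other mesenchymal cells, and at 209 CPM in Gli1-, where the intervals overlapped. By 21 dpi tenocyte-like cells held 76.2% and 68.9% at 255 and 199 CPM, followed in both sorts by other mesenchymal cells (186 and 169 CPM), chondrocyte-like cells (72.4 and 84.0 CPM) and stem cell-like cells (47.6 and 62.8 CPM). Within tenocyte-like cells the Gli1+ ratios at 7 and 21 dpi came to 2.43 and 2.67, the Gli1- ratios to 2.87 and 2.79, larger at 21 dpi than those of Ptn in the same cells. Most of these cells lay in other clusters at 21 dpi than before injury. In the clusters with 692 (Gli1+) and 194 (Gli1-) uninjured cells Mdk went from 38.5 to 115 and from 48.7 to 123 CPM. Clusters with 51 and 72 uninjured cells went from 57.9 to 261 and from 2.29 to 201 CPM. Outside the mesenchymal cells Schwann-like cells of 7 dpi Gli1- had 75.7 CPM and pericyte and smooth muscle-like cells of 7 dpi Gli1+ 67.2 CPM. These were 42.4% and 42.5% of the mesenchymal Mdk level of the library, where the 5 matrix genes stood at 27.6% to 52.0% and 26.2% to 42.2%. In endothelial-like cells of 7 dpi Gli1+ the matrix genes stood at 15.1% to 22.8% and Mdk at 11.6%. The matrix genes thus gave no single background for all classes, and they cannot tell background from expression of Mdk here. Gli1+ epidermal-like cells, which led for Ptn before injury, were at 2.89 to 20.4 CPM, and the unnamed cluster at 11.7 to 59.2 CPM.

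**Figure D4:**
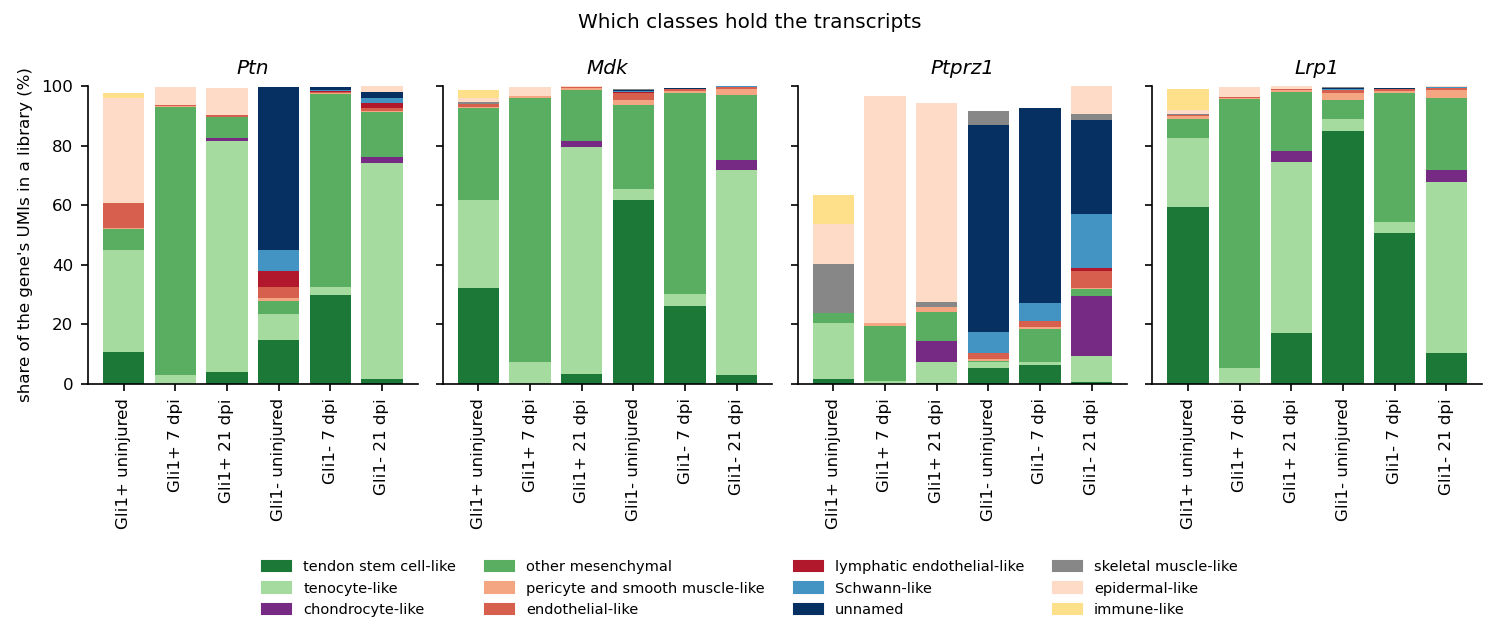
Share of each library's Ptn, Mdk, Ptprz1 and Lrp1 UMIs held by each class (percent, stacked bars). Bars fall short of 100% because classes with fewer than 50 cells in a library are left out. Ptn passes from epidermal-like and tenocyte-like cells (Gli1+) and the unnamed cluster (Gli1-) before injury to other mesenchymal cells at 7 dpi (90.03% and 64.9%) and to tenocyte-like cells at 21 dpi (77.5% and 72.6%). In Gli1- the last step depends on naming, since the main 7 dpi cluster of other mesenchymal cells was nearest to the tenocyte markers.

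Ptprz1 (ENSMUSG00000068748), the receptor phosphatase, was low in mesenchymal cells and lower after injury. The levels were 8.89, 2.11 and 1.41 CPM for the Gli1+ sort against 2.34, 0.726 and 1.37 CPM for the other, from 72 to 208 UMIs per library. In Gli1+ the log2 ratio at 7 dpi came to -2.07 (-2.39 to -1.76), and in Gli1- to -1.69 (-2.16 to -1.22). At 21 dpi it was -2.66 (-3.00 to -2.32) and -0.78 (-1.20 to -0.35). These ratios rested in part on very few cells: 31 chondrocyte-like cells held 107 of the 208 mesenchymal UMIs in uninjured Gli1+, and 18 held 45 of 87 in uninjured Gli1-. Within male cells the 7 dpi ratios were -1.10 and -1.94, the first from 27 uninjured UMIs. Without chondrocyte-like cells the values became -1.08 and -2.05 for Gli1+, with -0.72 and -1.09 for Gli1-, still past the call, but from 7 to 21 dpi the Gli1- ratio turned from 0.91 to -0.37 (-0.98 to 0.23). Where mesenchymal cells were picked cell by cell with markers instead of by cluster, the Gli1- ratios over uninjured turned to 0.32 and 1.12, with 20 UMIs in the uninjured library. Tenocyte-like cells of Gli1+ had 11.7, 1.97 and 0.692 CPM of Ptprz1, those of Gli1- had 5.43, 1.14 and 0.617 CPM, lower after injury in both.

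Most of the Ptprz1 message was in cells of other kinds, by a small margin in uninjured Gli1+, where 208 of 425 Ptprz1 UMIs were in mesenchymal cells. In Gli1- the unnamed cluster was at 637, 685 and 612 CPM and held 69.6%, 65.7% and 31.4% of the library's Ptprz1 UMIs, and Schwann-like cells were at 69.0, 53.7 and 138 CPM. After thinning, 70.1% of the unnamed cells held a Ptprz1 UMI before injury, against 0.268% of immune-like cells (81.9% and 0.608% unthinned, median depths 3513.5 and 7746 UMIs). In Gli1+, among classes of at least 50 cells, skeletal muscle-like cells led before injury at 107 CPM with 16.5% of the UMIs, while the 31 chondrocyte-like cells held 25.2%, and epidermal-like cells held 13.4%, 76.3% and 66.9% of the UMIs at 12.7, 33.5 and 28.3 CPM. Chondrocyte-like cells at 21 dpi had 7.04 and 12.7 CPM, above every other mesenchymal class of their library. They were not the highest mesenchymal cluster of Gli1+, however. Within other mesenchymal cells of that library, at 3.04 CPM as a class, a cluster of 210 cells had 35.97 CPM. The unnamed Gli1- cluster, with the highest Ptprz1, was also the one with the highest Ptn. Summed Schwann markers in the mesenchymal cells stood at 50.1, 19.2 and 23.0 CPM for Gli1+, while for Gli1- they stood at 69.3, 25 and 29.7 CPM, so they were lower after injury beside Ptprz1, and their part in its ratio was not tested.

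**Figure D5:**
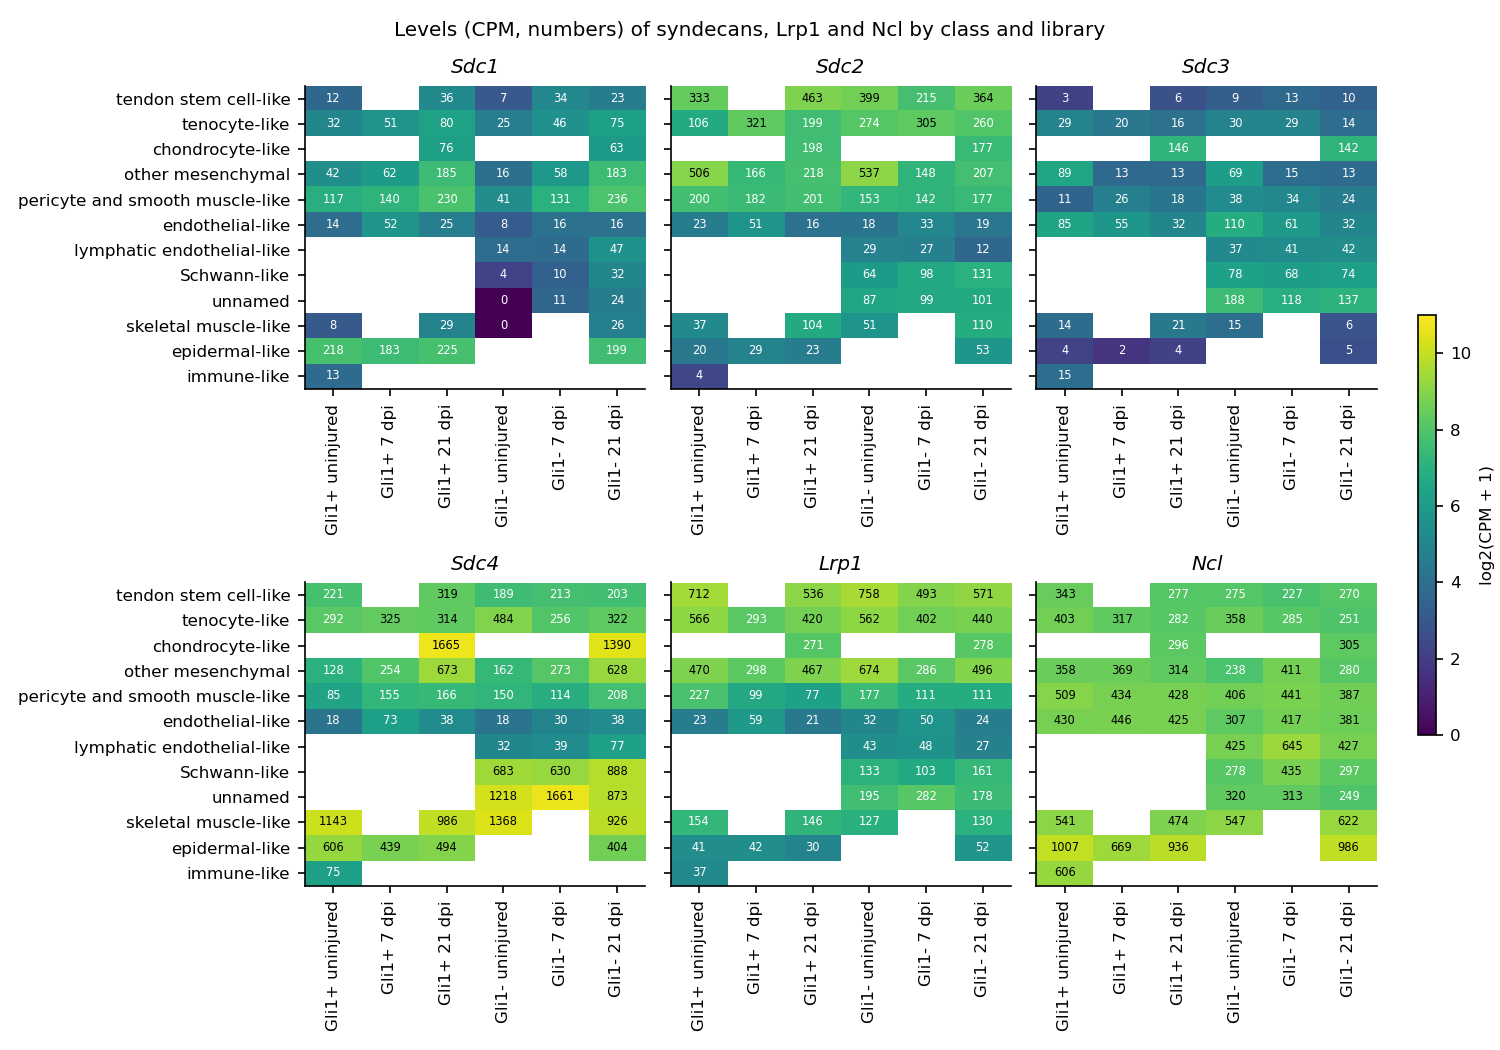
Levels of the 4 syndecans, Lrp1 and Ncl by class (rows) and library (columns), with the CPM printed in each field and the colour showing log2(CPM + 1). Blank fields are classes with fewer than 50 cells in that library. Lrp1 is high in mesenchymal classes (286 to 758 CPM outside the chondrocyte-like cells) and Sdc4 in chondrocyte-like cells (1665 and 1390 CPM), the unnamed Gli1- cluster (873 to 1661 CPM) and skeletal muscle-like cells (926 to 1368 CPM).

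The 4 syndecans went different ways in mesenchymal cells. Sdc1 (ENSMUSG00000020592), a syndecan best known from epithelia and plasma cells, climbed through 20.3, 61.4 and 93.1 CPM in the Gli1+ sort, and through 9.45, 48.0 and 94.4 CPM in the other sort. Its log2 ratios over uninjured reached 1.60 (1.46 to 1.74) at 7 dpi and 2.20 (2.06 to 2.33) at 21 dpi for Gli1+, with 2.34 (2.19 to 2.505) and 3.32 (3.17 to 3.48) for Gli1-, higher at 21 than at 7 dpi in both. Within male cells the 7 dpi ratios were 1.06 and 2.45, and within female cells the Gli1+ ratio at 21 dpi was 2.48. By class, epidermal-like cells (183 to 225 CPM in Gli1+) and pericyte and smooth muscle-like cells (40.5 to 236 CPM) led. Among mesenchymal classes at 21 dpi other mesenchymal cells were highest at 185 and 183 CPM, tenocyte-like cells had 79.6 and 74.5 CPM, and stem cell-like cells had 36.2 and 23.4 CPM. Summed epidermal markers in the mesenchymal cells stood beside it at 38.02, 2276 and 207 CPM for Gli1+ and at 17.3, 35.7 and 43.5 CPM for Gli1-, and their part in the Sdc1 ratio was not tested.

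Sdc4 (ENSMUSG00000017009), the syndecan of focal adhesions, was higher at 21 dpi only. Mesenchymal levels were 242, 261 and 459 CPM (Gli1+) and 210, 257 and 456 CPM (Gli1-). The ratios at 7 dpi were 0.11 and 0.29, short of the call, and at 21 dpi 0.93 (0.89 to 0.97) and 1.12 (1.08 to 1.15). Chondrocyte-like cells were the highest mesenchymal class at 21 dpi, at 1665 and 1390 CPM with 17.4% and 18.9% of the UMIs, and without them the 21 dpi ratios were 0.73 and 0.93. A pair of clusters led by Saa3 and Mmp13, 1 in each sort, also had 720 and 729 CPM of Sdc4 and 205 and 210 CPM of Sdc1 at 21 dpi. Outside the mesenchyme the unnamed Gli1- cluster had 1218, 1661 and 873 CPM, and skeletal muscle-like cells had 1143 and 1368 CPM before injury. The level of tenocyte-like cells was 292, 325 and 314 CPM in Gli1+, while in Gli1- it was 484, 256 and 322 CPM.

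Sdc2 (ENSMUSG00000022261), the syndecan of fibroblasts, was lower at 7 dpi. Its levels were 279, 175 and 240 CPM on the Gli1+ side, and 401, 179 and 251 CPM on the Gli1- side. The ratio at 7 dpi was -0.67 (-0.72 to -0.63) and -1.16 (-1.20 to -1.13), and at 21 dpi -0.22 and -0.68, of which only the Gli1- value passed the call. Scaling by TMM turned the Gli1+ value at 21 dpi to 0.24 and took the Gli1+ ratio at 7 dpi to -0.37 and the Gli1- ratio at 21 dpi to -0.50, short of the call. Before injury stem cell-like cells held 65.8% and 81.3% of the Sdc2 UMIs, at 333 and 399 CPM, while other mesenchymal cells had a higher level (506 and 537 CPM). The other mesenchymal class was at 166 and 148 CPM at 7 dpi, when it consisted mostly of clusters without uninjured cells. The cluster that held most of it before injury went from 534 to 404 CPM in Gli1+ (247 and 165 cells) and from 552 to 474 CPM in Gli1- (416 and 102 cells). Gli1- clusters with 3629 and 1361 uninjured stem cell-like cells rose by 7 dpi, from 473 to 543 and from 213 to 273 CPM. The stem cell-like cluster with 79 uninjured cells fell from 306 to 196 CPM. Tenocyte-like clusters of Gli1- went from 158 to 318 CPM and from 425 to 292 CPM. The lower Gli1- level at 7 dpi thus came with a change of clusters. In tenocyte-like cells of Gli1+ Sdc2 went from 106 CPM to 321 CPM, a ratio of 1.59, against the direction of the mesenchymal cells as a whole.

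Sdc3 (ENSMUSG00000025743), the syndecan of nerve and a known pleiotrophin receptor, had 22.6, 13.8 and 21.3 CPM in the Gli1+ sort, and in the Gli1- sort 15.4, 15.9 and 22.4 CPM. Only the Gli1+ ratio at 7 dpi, -0.72 (-0.87 to -0.56), passed the call, and it was -0.42 under TMM and -0.55 without chondrocyte-like cells. The 21 dpi ratios were -0.09 (-0.23 to 0.06) and 0.54 (0.40 to 0.68), the second of which became 0.72 under TMM, 0.698 where cells were picked one by one with markers, and -0.10 without chondrocyte-like cells. At 21 dpi those cells had 146 and 142 CPM and held 34.8% and 31.5% of the library's Sdc3 UMIs. Tenocyte-like cells had lower Sdc3 at 21 dpi than before injury, with ratios of -0.85 (-1.08 to -0.62) and -1.06 (-1.44 to -0.65). Most of these cells lay in other clusters at 21 dpi, and within clusters the levels were closer, from 14.5 to 15.7 and from 30.3 to 24.2 CPM in Gli1+, and from 10.3 to 13.5 and from 44.4 to 43.2 CPM in Gli1-. Outside the mesenchyme the unnamed cluster (118 to 188 CPM), endothelial-like cells (32.3 to 110 CPM) and Schwann-like cells (68.4 to 78.1 CPM) carried it.

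Lrp1 (ENSMUSG00000040249) was highest in mesenchymal classes and was lower there after injury. Gli1+ mesenchymal cells had 634, 297 and 437 CPM, whereas Gli1- mesenchymal cells had 738, 370 and 453 CPM. The ratios at 7 dpi were -1.09 (-1.12 to -1.06) in Gli1+ and, in Gli1-, -0.998 (-1.02 to -0.98). At 21 dpi they were -0.54 (-0.56 to -0.51), short of the call, and -0.71 (-0.73 to -0.68), which was -0.52 under TMM. Within male cells the 7 dpi ratios were -1.15 and -1.04. After thinning, 64.8%, 43.8% and 53.6% of Gli1+ mesenchymal cells and 71.1%, 51.8% and 56.2% of Gli1- mesenchymal cells held an Lrp1 UMI. The classes were close to each other: stem cell-like cells had 493 to 758 CPM, other mesenchymal cells 286 to 674 CPM and tenocyte-like cells 293 to 566 CPM, while immune-like cells had 36.8 CPM and endothelial-like cells 20.5 to 59.0 CPM. Between them lay pericyte and smooth muscle-like cells (76.5 to 227 CPM) and the unnamed cluster of Gli1-, whose 282 CPM at 7 dpi overlapped the 286 CPM of other mesenchymal cells within the intervals. Lrp1 in the mesenchymal cells was thus lowest at the time when Ptn was highest. Among thinned Gli1- cells at 7 dpi, 44.1% of those with a Ptn UMI and 56.8% of those without held Lrp1, and in Gli1+ 41.0% and 45.8%.

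Ncl (ENSMUSG00000026234) did not pass the call in any of the 4 comparisons. Among mesenchymal cells the Gli1+ sort had 361, 367 and 288 CPM, the Gli1- sort 277, 336 and 263 CPM, with ratios over uninjured between -0.33 and 0.28. At 21 dpi the sign depended on the scaling, -0.33 and -0.08 being 0.14 and 0.11 under TMM. The level was higher in cells with cycling message: at 7 dpi mesenchymal cells with 2 or more cycling UMIs had 504 and 482 CPM, and the rest 308 and 290 CPM. In the 4 libraries with enough of them, epidermal-like cells led at 669 to 1007 CPM. Skeletal muscle-like (547 CPM) and lymphatic endothelial-like cells (645 CPM) led in uninjured and 7 dpi Gli1-, and immune-like cells had 606 CPM and held 57.1% of the Ncl UMIs of the uninjured Gli1+ library.

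Read as sending and receiving cells, the message of both sides was present in the mesenchymal classes. Before injury the classes with the highest Ptn, epidermal-like in Gli1+ and unnamed in Gli1-, had 41.1 and 195 CPM of Lrp1. They led their libraries for other receptor-side genes. The unnamed cluster had the highest Ptprz1 (637 CPM) and Sdc3 (188 CPM), and epidermal-like cells the highest Sdc1 (218 CPM). Only Lrp1 is followed below, and it does not stand for the whole receiving side. In uninjured Gli1+, tenocyte-like cells had 149 CPM of Ptn and 566 CPM of Lrp1, and stem cell-like cells 22.7 and 712 CPM. In uninjured Gli1-, stem cell-like cells, with 8.05 CPM of Ptn and 758 CPM of Lrp1, held 84.8% of the Lrp1 and 14.8% of the Ptn UMIs of their library. At 7 dpi other mesenchymal cells of Gli1+, 6216 of the 6996 mesenchymal cells of that library, held 90.03% of the Ptn, 88.6% of the Mdk and 90.3% of the Lrp1 UMIs in a class that held nearly all the mesenchymal cells. Inside the class the order was opposite: its largest cluster had 712 CPM of Ptn and 265 CPM of Lrp1, and its cluster nearest to stem cells had 316 and 403 CPM. In Gli1- at 7 dpi the stem cell-like class held 50.6% of the Lrp1 and 29.7% of the Ptn UMIs. At 21 dpi tenocyte-like cells held 57.7% and 57.5% of the Lrp1 UMIs beside 77.5% and 72.6% of the Ptn UMIs. Shares follow the number and depth of the cells of a class as well as its level, and the sort and the tissue digest set those numbers. No contact or signalling was measured.

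The sorts differed most before injury. Over Gli1- mesenchymal cells, Gli1+ cells had higher Ptn (2.30), Ptprz1 (1.92) and Sdc1 (1.10) and no lower member, where 25% of all genes were higher and 10.8% lower. In male cells these ratios were 2.74, 0.68 (-0.01 to 1.32) and 1.70. The mesenchymal cells were of unlike make-up before injury, with the tenocyte gene Fmod at 1860 CPM in Gli1+ and 168 CPM in Gli1-. Ptn was at 149 and 73.6 CPM in tenocyte-like cells of the 2 sorts and at 22.7 and 8.05 CPM in stem cell-like cells. For Ptprz1, 31 chondrocyte-like cells held 107 of the 208 UMIs of Gli1+. The part of make-up in these ratios was not tested. At 7 dpi Ptprz1 alone was higher, by 1.54 (1.13 to 1.97), with 9.8% of all genes higher and 5.35% lower. Its levels were only 2.11 and 0.726 CPM, where endothelial-like cells of the same libraries had 0 and 1.88 CPM. Summed epidermal markers in these mesenchymal cells stood at 2276 CPM in Gli1+ and 35.7 CPM in Gli1-. Epidermal-like cells of 7 dpi Gli1+ had 33.5 CPM of Ptprz1, and the part of epidermal message in the ratio was not tested. At 21 dpi no member passed the call (4.07% of all genes higher, 6.84% lower), but Ptprz1 stood at 0.999 instead of 0.04 once chondrocyte-like cells were left out. Ptn at 21 dpi was at 201 and 147 CPM, a ratio of 0.45. By that time the other 7 members differed between the sorts by ratios of -0.07 to 0.23.

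Genes that make and sulfate the sugar chains moved both ways. Of 26 genes for glycosaminoglycan synthesis and sulfation, 8 were higher and 5 lower at 7 dpi in Gli1+ (median log2 ratio 0.08, all genes -0.20) and 11 and 4 in Gli1- (median 0.49, all genes -0.08), where 22.9% and 34.9%, and 24.9% and 28%, of all genes were higher and lower. At 21 dpi the counts were 8 and 4 (0.19, all genes -0.36) and 10 and 3 (0.36, all genes -0.12), against 15% and 38.9%, and 22% and 29.6%, of all genes. For lists of this size a few genes separate such counts from the shares of all genes. Chst11, the sulfotransferase of chondroitin 4-sulfation, went from 49.0 CPM to 173 and 163 CPM in Gli1+ and from 23.4 CPM to 158 and 191 CPM in Gli1-. Chsy1, a chondroitin synthase, went from 30.4 CPM to 79.9 CPM at 7 dpi in Gli1+ (ratio 1.40) and from 17.3 to 82.6 CPM in Gli1- (2.25). The heparan sulfate 6-O-sulfotransferase Hs6st2 had ratios of 3.23 and 2.79 at 7 dpi from levels of 1.88 and 2.13 CPM, while the chondroitin sulfotransferase Chst3 was lower (-2.16 and -1.24) at levels under 2 CPM.

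Of 9 other core proteins that carry such chains, 3 were higher and 2 lower at 7 dpi in Gli1+ (median -0.30) and 4 and 2 in Gli1- (0.24), and at 21 dpi 2 and 2 (0.06) and 3 and 1 (0.24). The shares of all genes were 22.9% and 34.9%, 24.9% and 28%, 15% and 38.9%, and 22% and 29.6%. Bgn, a small matrix proteoglycan with chondroitin or dermatan sulfate rather than heparan sulfate, went from 947 CPM to 2654 and 2736 CPM in Gli1+ and from 743 CPM to 2939 and 3018 CPM in Gli1-. Cd44, the hyaluronan receptor, was higher at 7 dpi, from 345 to 891 CPM and from 307 to 894 CPM. Gpc1, a glypican, was higher at 21 dpi (1.60 and 3.93), and Gpc3, another glypican, was lower at both times, from 187 to 52.6 and 44.9 CPM in Gli1+ and from 138 to 49.1 and 39.2 CPM in Gli1-. The list therefore held members that moved in opposite directions in both sorts.

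Of 18 further binding partners, 15 or 16 had enough UMIs. At 7 dpi 5 were higher and 5 lower in Gli1+ (median -0.04) and 6 and 5 in Gli1- (0.35), and at 21 dpi 2 and 5 (-0.20) and 3 and 2 (0.24). Of all genes, 22.9% and 34.9% at 7 dpi in Gli1+, 24.9% and 28% in Gli1-, and at 21 dpi 15% and 38.9%, and 22% and 29.6%, were higher and lower. Ptprs, a receptor phosphatase that binds the sulfated chains of other proteins, was higher at both times, from 80.7 to 132 and 126 CPM in Gli1+ and from 35.7 to 142 and 134 CPM in Gli1-. The integrin subunit Itgav was higher at 7 dpi (0.80 and 1.22), as was the glypican Gpc2 (1.14 and 2.25) at 1.41 CPM in each sort, and the subunit Itga4 was lower there (-2.80 and -0.77), with 0.565 and 0.333 CPM in Gli1- and an interval that spanned 0 in that sort (-1.60 to 0.10).

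Of 10 genes for syndecan adaptors and shedding, 4 were higher and 2 lower in each of the 4 comparisons (medians 0.20, -0.15, -0.06 and -0.10 for Gli1+ and then Gli1- at 7 and 21 dpi in turn), where 22.9%, 15%, 24.9% and 22% of all genes were higher and 34.9%, 38.9%, 28% and 29.6% lower. Mmp14, a membrane protease that sheds syndecans, climbed through 164, 356 and 502 CPM (Gli1+) and through 86.1, 303 and 438 CPM (Gli1-). Mmp9 was higher as well, from 0.256 and 0.215 CPM to 7.48 and 3.08 CPM at 7 dpi, and so was the adaptor Gipc1, with ratios of 1.57 and 1.63. Timp3, an inhibitor of metalloproteases, was lower, with 849, 164 and 247 CPM in the one sort (Gli1+), then 1041, 214 and 253 CPM in the other. The protease and its inhibitor moved in opposite directions in both sorts.

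Of 9 genes of Lrp1 partners, 2 were higher and 0 lower at 7 dpi in Gli1+ (median 0.40), 2 and 1 at 21 dpi (0.28), 3 and 1 at 7 dpi in Gli1- (0.34) and 3 and 2 at 21 dpi (0.28). For this list and the next ones, the shares of all genes higher were 22.9%, 15%, 24.9% and 22% in that order, and those lower 34.9%, 38.9%, 28% and 29.6%. Ctsd, a lysosomal protease taken up through this receptor family, was higher in all 4 comparisons, with ratios of 0.66 and 0.86 in Gli1+ and 0.77 and 1.20 in Gli1-. Of 10 nucleolar genes, 2 were higher and 1 lower at 7 dpi in each sort (medians -0.01 and 0.17), and 0 and 3 (-0.32) and 1 and 3 (-0.22) at 21 dpi. Npm1, the abundant nucleolar chaperone, was higher at 7 dpi by 1.11 and 1.12, and Nop58, of the small nucleolar particles, had a ratio of -1.01 in each sort, beside an Ncl that did not pass the call. Fbl, the rRNA methylase fibrillarin, was higher at 7 dpi (1.18 and 0.61), and Polr1a, the large subunit of RNA polymerase I, had -0.80 and -0.58 at 21 dpi, both short of the call under TMM. Of 5 Ptprz1 substrates and their kin, 0, 0, 1 and 0 were higher and 2, 3, 1 and 1 lower, in the same order of comparisons as for the syndecan genes, with medians of -0.21, -0.73, -0.07 and 0.09. Fyn, a Src family kinase, had 182, 82.2 and 96.7 CPM in Gli1+ cells, with 192, 109 and 107 CPM in Gli1- cells, lower in all 4 comparisons, of which the Gli1+ one at 21 dpi (-0.92) falls short of the call under TMM.

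Across 49 points, each a class in a library, and 14863 genes, the genes most like Ptn by Pearson's r on log2(CPM + 1) were Chl1 (0.75), Rassf8 (0.74), Hypk (0.73), Dbi (0.71) and Ephb2 (0.70). Those most like Mdk were Mmp2 and Mxra8 (0.91 each), with Lum, Col1a2 and Slc39a7 next (0.90 each), of which Lum, Col1a2 and Mmp2 are genes of the fibroblast matrix. For Ptprz1 they were Dlgap1 (0.84) and Cadm4, Pou3f1, Nkain2 and Zfp612 (0.82 each). Among the members, r was 0.42 between Ptn and Mdk, 0.89 between Sdc2 and Lrp1, 0.75 between Mdk and Sdc2, 0.70 between Ptprz1 and Sdc4 and -0.63 between Lrp1 and Ncl. Lum, Col1a2 and Mmp2 were picked by their r with Mdk, so their place above Ptn was fixed in advance. The points share libraries and depth, so these values are descriptions.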

How the data were processed

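Single cells were captured with a Chromium 3′ kit and, per the labels, processed by the authors with Cell Ranger 3.1.0, STAR and the mm10 build. The headers of the deposited count files name Cell Ranger 9.0.0, and 1735 of 33696 gene IDs are absent from GENCODE M21, so the annotation release is not given in the sources used here. The deposited values are raw counts of UMIs per gene and cell.

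From these, cells with at least 200 genes, 1000 UMIs, a log10 gene number of at least 0.7 of the log10 UMI number, and at most 5% mitochondrial and 5% hemoglobin UMIs were kept, and top-scoring doublets (Scrublet, in place of the DoubletFinder of the study) were removed at 0.8% per 1000 cells. Each sort was clustered on its own (scanpy 1.11.5, leidenalg 0.10.2, resolution 0.5, 20 neighbours, 30 components of 2000 variable genes without markers or members), without batch correction, into 26 Gli1+ and 22 Gli1- clusters, of which 18 came to over 90% from 1 library. Clusters were named from 130 markers. The thresholds of naming were set after the data were seen: a mean log2 ratio of at least 1 and 3 raised markers, and for mesenchymal cells Col1a1, Col1a2 and Dcn at 500 CPM or more. UMIs were summed per class and library, and genes with 20 or more UMIs over both libraries were compared by log2 CPM ratios with exact binomial 95% intervals. Numpy 2.4.6, scipy 1.17.1, pandas 2.3.3 and, for TMM, edgeR 4.0.16 in R 4.3.3 were used. On simulated data the intervals held the true ratio for 94% to 95.6% of genes. Those data were drawn with counting error only, as the intervals assume. They therefore check the calculation and not the spread between mice or libraries.

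Members and gene lists were chosen with earlier results of these data known. All members were named, and from each list up to 4 genes past the call in the same direction in both sorts, by the size of their mean ratio at 7 or 21 dpi. Similar genes were the 5 with the highest correlation among genes of 10 CPM or more in a class. Bgn, in the heparan sulfate list, carries other chains. Alternatives were TMM scaling, no filters, resolution 1, joint clustering, a marker gate and a minimum of 100 UMIs, and, added after the data were seen, cells of 1 sex, no cycling cells and no chondrocyte-like cells. No comparison had replicates.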

Additional observations from a re-analysis of the deposited data

Results flagged for a closer look

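The following patterns differed in sign between the sorts, each with an interval that did not hold 0 in each sort, and none of these differences was tested, since each condition was 1 library. From 7 to 21 dpi, Mdk in mesenchymal cells had log2 ratios of 0.36 (0.32 to 0.39) in Gli1+ and -0.05 (-0.08 to -0.02) in Gli1-, neither past the call of 0.58, and the second became 0.03 with TMM scaling. Over the same interval Ptprz1 had -0.58 in Gli1+ and 0.91 in Gli1-, from 72 to 151 UMIs per library, and without chondrocyte-like cells -0.97 and -0.37. Sex also differed between the 7 and 21 dpi libraries of each sort. In tenocyte-like cells Sdc4 had 0.15 at 7 dpi and 0.10 at 21 dpi over uninjured in Gli1+, against -0.92 and -0.59 in Gli1-. The uninjured tenocyte-like cells of Gli1- were 194 cells of 1 cluster, at 246 CPM of Sdc4, and 72 cells of another, at 798 CPM, and 4665 cells of the latter cluster came from 21 dpi. The former cluster was at 314 CPM at 7 dpi and near its uninjured level at 21 dpi, at 259 CPM. The latter was lower at both times, at 199 and 324 CPM. In tendon stem cell-like cells Sdc2 at 21 dpi over uninjured had 0.48 in Gli1+ and -0.13 in Gli1-. In Gli1+, 1362 uninjured cells lay in 1 cluster and 978 of the 21 dpi cells in another, and in Gli1- 3629 uninjured cells lay in a cluster with 319 cells from 21 dpi. Within the Gli1+ cluster of the 1362 cells Sdc2 went from 332 to 345 CPM. In Gli1- it went from 473 to 600 CPM in the cluster of the 3629 cells. Gli1- clusters with 1361 and 79 uninjured cells went from 213 to 304 and from 306 to 252 CPM. The lower Gli1- value of the class was thus not seen within its largest uninjured clusters.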

How the results depend on the processing

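With 1 library per condition, all intervals cover counting error only, classes may hold different cells in different libraries, and whether a cell lost a message or cells of another kind replaced it was not separated. Of 36 member ratios over uninjured, none moved across the call and none that passed it changed sign at resolution 1, with joint clustering, without filters or without cycling cells. TMM scaling moved 5 of 36 across the call, and gave Ptn 3.47 and 2.08 (Gli1+, 7 and 21 dpi) and 3.65 (Gli1-, 21 dpi), Mdk 2.41, 2.93, 2.31 and 2.33 (Gli1+, then Gli1-, 7 and 21 dpi), with 2 members lower in Gli1+ at 7 dpi (4 without TMM) and 1 in Gli1- at 21 dpi (3 without). This follows from the scaling itself. Without filters Ptn was 3.06, 1.46, 5.46 and 3.19, and Mdk in Gli1- at 7 dpi 2.31. Male cells gave Ptn 2.99 and 5.92 and Mdk 1.85 and 2.28 at 7 dpi. Without cycling cells Gli1+ gave Ptn 3.40 and 1.76 and Mdk 2.24 at 7 dpi. The marker gate left 6 cells of 7 dpi Gli1+, so no value was made there, and gave Ptn 1.80 and Mdk 2.59 (Gli1+, 21 dpi) and Ptn 5.81 and 3.69 (Gli1-). It reversed Ptprz1 in Gli1- to 0.32 and 1.12, and leaving out chondrocyte-like cells reversed its Gli1- ratio from 7 to 21 dpi to -0.37. The cause was not tested. Only Gli1+ could be compared within female cells from uninjured to 21 dpi. Neither sort could be compared within cells of a single sex from 7 to 21 dpi. A test of the sorts over the 3 times, blocked by time, was not run.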
